A study of Mus musculus with 33 samples.

Results

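Mini-colon AKP #v was compared with Mini-colon AKP #iv, the pair of crypt-derived mini-colon tumour lines whose libraries carry the code letter F. Each line contributed 3 libraries, so the comparison used 6 of the 33 libraries of the series. Mini-colons are mouse colon epithelial tissues grown in a microfluidic hydrogel scaffold that shapes the cells into crypts around an open lumen. Their cells carried the Cre-dependent alleles written AKP, floxed Apc and Trp53 among them, and a Cre recombinase (OptoCre) that is switched on by doxycycline and blue light. Both lines were grown as organoids from cancer cells of light-induced mini-colons enriched in crypt tumours, and each therefore stands for 1 derivation. As references from the same letter, 3 libraries of organoid AKP (the same engineered cells, induced and kept as ordinary organoids), 3 of in vivo AKP (lines from colon tumours that arose in AKP mice given tamoxifen, with Cdx2-creERT2 as the driver) and 3 of the non-induced control were read. All lines were grown for 3 days and starved of growth factors for the last day before RNA was taken. The comparison asks how far apart the transcriptomes of mini-colon tumour lines of 1 genotype and 1 tissue position can lie.

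Loss of Apc leaves β-catenin undegraded, so that it enters the nucleus with TCF and LEF factors and drives WNT target genes, among them the markers of crypt base stem cells and a set of feedback inhibitors. In normal colon, WNT activity is highest at the crypt base, where stem cells lie beside secretory cells, and it falls as cells differentiate into goblet cells and colonocytes. Colonic tumour cells also carry, to varying degrees, a fetal-like or regenerative programme marked by genes such as Ly6a, Clu and Anxa1.

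To show what a TCF and LEF site looks like in the genes described first, the promoters of the called WNT target genes were searched for the letters CTTTGAT, read on both strands (ATCAAAG on the other). RefSeq promoter entries on GRCm38.p6, each covering 250 bases before to 50 bases after a gene's start, were matched by symbol. Of 18 WNT target genes called higher in #v, 12 had an entry and 3 of these (25%) held the letters, against 4.29% of 27025 symbols with an entry and 3.10% of 10037 tested genes with one. The 3 windows were Sp5 (chr2:70474673-70474972, plus strand), Tiam1 (chr16:89818303-89818602, minus strand) and Mmp7 (chr9:7691840-7692139, plus strand), printed 5′ to 3′ with the match in capitals.
Sp5: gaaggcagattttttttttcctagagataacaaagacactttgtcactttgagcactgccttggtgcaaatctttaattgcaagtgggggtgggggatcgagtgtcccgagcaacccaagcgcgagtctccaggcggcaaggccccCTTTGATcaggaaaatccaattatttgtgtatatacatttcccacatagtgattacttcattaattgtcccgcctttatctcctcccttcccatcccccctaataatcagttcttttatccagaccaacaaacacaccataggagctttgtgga
Tiam1: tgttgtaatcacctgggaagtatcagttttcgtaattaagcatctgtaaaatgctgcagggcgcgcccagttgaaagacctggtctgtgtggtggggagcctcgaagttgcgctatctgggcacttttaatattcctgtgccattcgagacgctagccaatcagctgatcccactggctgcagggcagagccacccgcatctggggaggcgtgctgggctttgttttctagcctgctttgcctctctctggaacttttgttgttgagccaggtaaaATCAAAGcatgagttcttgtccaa
Mmp7: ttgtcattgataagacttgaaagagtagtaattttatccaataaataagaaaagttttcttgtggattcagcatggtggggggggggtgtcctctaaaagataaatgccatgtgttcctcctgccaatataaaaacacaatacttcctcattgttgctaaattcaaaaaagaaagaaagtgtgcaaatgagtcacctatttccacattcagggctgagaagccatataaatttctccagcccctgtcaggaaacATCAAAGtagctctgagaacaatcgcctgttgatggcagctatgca
The Mmp7 match began at base 5 counted from the start in the printed entry, and a second Mmp7 entry (chr9:7692091-7692390) held the same genomic match 247 bases before its start. A match is a description of these windows and binding was not measured. The genes were listed as WNT targets beforehand, and list members not called were not searched. The share of promoters with the letters therefore says nothing about #v against #iv.

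The #iv libraries held 3222698 to 3826247 counts and the #v libraries 3397553 to 8256526, so that 1 count was worth at most 0.310 CPM (counts scaled to a common library total). Levels are given as CPM scaled by TMM factors, which correct for library composition. Replicates within each line differed by more than sampling noise, and #v more than #iv, so none was the same library entered again. Trp53 (the p53 tumour suppressor) was at 3.08, 2.59 and 3.87 CPM in #v and at 1.92, 2.72 and 2.05 in #iv, against a mean of 18.1 in the control and 22.1 in in vivo AKP. Apc read 108 ± 2.48 against 93.6 ± 3.64 CPM (mean ± SD, 3 libraries each, adjusted p = 0.0893). The 3′ counts of Apc do not read the deleted exons and so do not check the allele. Nor does the Trp53 level check its allele, since in vivo AKP, which carries the same deletion, stood above the control. All 12 epithelial markers searched had counts in both lines, and their summed level was 4287 to 4566 CPM in #v and 3915 to 4100 in #iv. The 15 fibroblast and muscle markers summed to 39.9 to 116 CPM in #v and 4.53 to 7.43 in #iv, 8 of them (among them Col1a2, Dcn, Pdgfrb and Des) without a count in either line, and Vim was the member that passed the filter on low values. Of 22 immune markers, 13 (Cd3e, C1qa and Adgre1 among them) were at 0 in both lines. The summed level of that list, 286 to 344 against 215 to 236 CPM, came mostly from Ly6g. The 10 endothelial markers stayed under 2.75 CPM in every library, with Kdr, Tek, Emcn, Tie1 and Cldn5 at 0 in both lines.

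Of 13044 genes tested, 1296 (9.94%) were higher in #v and 1221 (9.36%) lower, by edgeR's quasi-likelihood test at a Benjamini-Hochberg adjusted p under 0.05. The adjusted p-values below come from this test, and the list counts below are to be read beside these shares. Most differences were small: 284 genes were higher and 195 lower by at least 1 log2 unit, and the median over all genes was 0.02. The higher count fell to 844, 848 and 856 without #iv replicate 1, #iv replicate 2 or #v replicate 3. A fit over 33 libraries, in which the difference between the code letters enters the spread, called 200 higher and 229 lower.

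**Figure D1:**
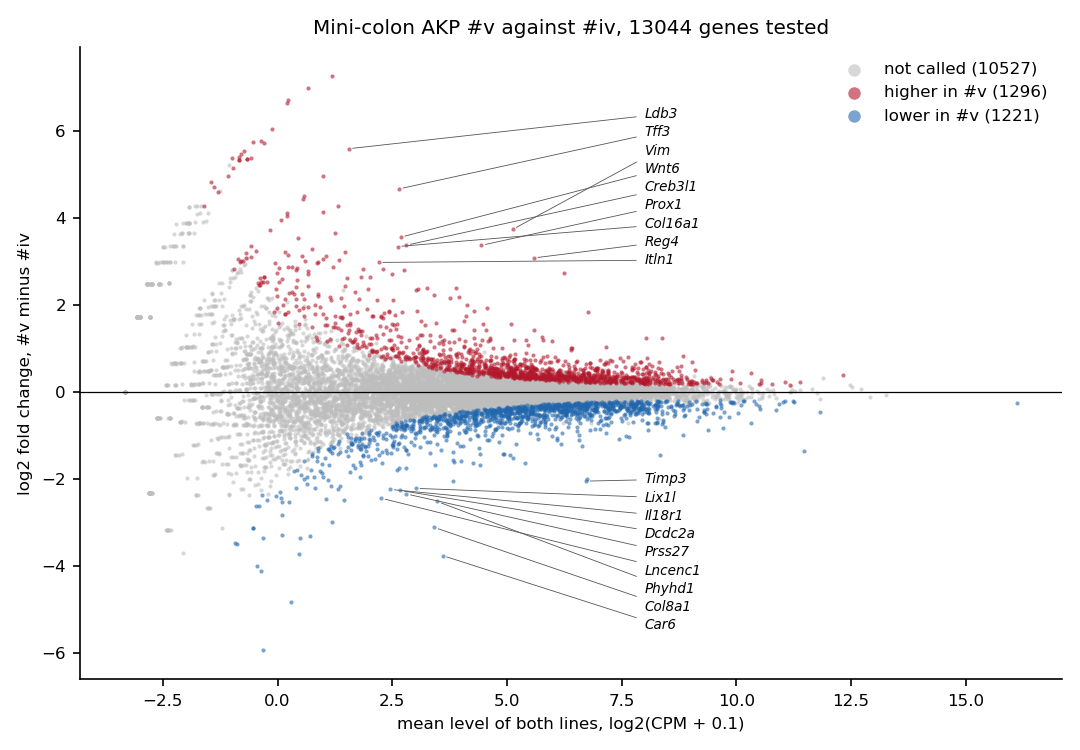
Log2 fold change (#v minus #iv) of 13044 genes against their mean level in both lines, log2(CPM + 0.1). Red points (1296 genes) were called higher and blue points (1221) lower in #v, and labels mark the named genes with the largest changes in each direction, from Ldb3 at 5.60 to Car6 at −3.75.

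WNT target genes were mostly higher in #v. Of 29 tested members of a list of WNT target and feedback genes, 18 were higher and 1 lower, with a median of 0.47 log2 units, beside 9.94% and 9.36% of all genes. Ascl2, the transcription factor that specifies crypt stem cells, stood at 77, 75.2 and 80 CPM in #v and at 30.2, 33.2 and 36.7 in #iv (log2 fold change 1.21 ± 0.11 SE, adjusted p = 6.06e-11). For Lgr5, the R-spondin receptor by which these cells are known, the levels were 134, 117 and 138 CPM against 85.1, 83 and 79.5 (0.65 ± 0.10, 2.06e-06). Neither gene's libraries overlapped between the lines, and in vivo AKP lay higher still for both, at means of 109 and 147 CPM. Among the feedback genes, Axin2 (a scaffold of the β-catenin destruction complex) read 159, 163 and 152 CPM against 112, 103 and 121 (0.49 ± 0.12, 0.00401), and Nkd1, an inhibitor acting on Dishevelled, read 67.4, 51.7 and 60.1 against 22.8, 29.3 and 31.3 (1.09 ± 0.23, 0.00539). Both are direct outputs of the pathway that restrain it, and both were higher in every #v library than in any #iv library.

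The 3 genes whose windows are printed above were among those higher. Sp5, a zinc-finger repressor induced by WNT, read 28.3, 24.8 and 24.1 CPM against 9.88, 16.3 and 14.9 (0.90 ± 0.16, 8.87e-05), with an in vivo AKP mean of 184. Tiam1, a Rac exchange factor, differed by 0.47 ± 0.12 (0.00379) and Mmp7, the matrix metalloproteinase matrilysin, by 0.69 ± 0.16 (0.00132). The nuclear partners of β-catenin also differed: Tcf7 read a mean of 45.3 CPM against 33.2 (0.47 ± 0.12, 0.00552) and Lef1 12 against 8.31 (0.56 ± 0.21, 0.0486). Prox1, a homeobox factor of WNT-driven colonic tumours, stood at 63.5, 32.6 and 23.2 CPM in #v against 2.47, 5.13 and 3.08, with #v replicate 1 the highest. Its log2 fold change was 3.38 ± 0.59 (0.00228) and was 2.96 without #v replicate 1. Apcdd1, a membrane inhibitor of WNT ligands, was 1.93 ± 0.36 higher (0.00318), and it too was highest in #v replicate 1, at 48.1 CPM. The ligand-binding inhibitor Wif1 had 67 counts in #v and 3 in #iv, a ratio of 13 (95% counting interval 4.25 to 64.5).

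Cd44, a hyaluronan receptor and WNT target, was the exception, at 556, 522 and 502 CPM in #v against 735, 721 and 711 (−0.46 ± 0.07, 2.22e-06). Rnf43 (63, 45.2 and 55.3 against 42.3, 42.9 and 47.9 CPM, adjusted p = 0.12), which removes WNT receptors from the surface, was not called. Notum, which inactivates WNT ligands, stood at 31.3 ± 4.39 against 32.9 ± 4.59 CPM (0.917), and Myc at 82.4 ± 6.70 against 69.4 ± 4.23 (0.657). The count of higher list members stayed between 13 and 17 when any 1 library was left out, and it was 4 in the 33-library fit.

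Stem cell markers shared this direction. Of 22 tested, 11 were higher and 1 (Cd44) lower, with a median of 0.52. Sox9, which the study scores together with Lgr5 and Cd44 as cancer stemness, was not called. Its log2 fold change lay between −0.14 and −0.05 when any 1 library was left out. Smoc2 (GRCm39 chr17:14499735-14625074, plus strand), a secreted matricellular protein of intestinal stem cells, had the smallest p of all genes tested. It stood at 128, 126 and 141 CPM in #v and 15.4, 22.9 and 21 in #iv (2.74 ± 0.12, 8.44e-21). Organoid AKP stood at 21.2 ± 2.32 CPM, level with #iv, and in vivo AKP at 437 ± 21.6. Hopx, a marker of slowly cycling and of regenerating cells, read 62.1, 70.9 and 78.5 CPM against 26.6, 22.9 and 29.2 (1.43 ± 0.22, 0.000342). Lrig1, a brake on ErbB receptors in stem cells, was 0.67 ± 0.11 higher (1.99e-05), Bmi1, a Polycomb protein, 0.68 ± 0.12 (4.19e-05), and Prom1 (CD133) 0.44 ± 0.07 (4.28e-06). Gpx2, the gastrointestinal glutathione peroxidase, read 511, 585 and 653 CPM against 328, 318 and 344 (0.83 ± 0.08, 2.63e-10). Slc12a2, a chloride importer of crypt cells, was 0.59 ± 0.08 higher (2.43e-07). Leaving out any 1 library gave 11 or 12 higher members, and the 33-library fit gave 5.

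WNT ligands and receptors moved both ways. Out of 32 tested, 7 were higher and 4 lower. Wnt6 stood at 15.7, 10.2 and 9.49 CPM in #v and 0.274, 0.604 and 1.79 in #iv (3.57 ± 0.41, 7.11e-08), with 73.4 ± 13.8 in in vivo AKP. Wnt5b, a ligand of the β-catenin-independent branch, was 1.23 ± 0.36 higher (0.013). In the opposite direction, Wnt7a read 6.44, 6.70 and 3.87 CPM against 17.8, 11.8 and 13.1 (−1.38 ± 0.24, 3e-05), and Wnt7b 148, 139 and 136 against 236, 228 and 207 (−0.67 ± 0.08, 4.35e-08). Wnt6 and Wnt5b, with Wnt16 on 29 counts against 3 (a ratio of 5.62, 1.74 to 28.8), were thus the ligands higher in #v, and Wnt7a and Wnt7b those lower. Of the receptors, Fzd10 was 0.89 ± 0.19 higher (0.000469), Lgr4 0.59 ± 0.12 (0.00049) and Lgr6 0.56 ± 0.14 (0.00294). Wls, which escorts WNT ligands to the membrane, was 0.42 log2 units below #iv (adjusted p = 6.92e-05) and is on chromosome 3, whose genes are described further on.

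**Figure D2:**
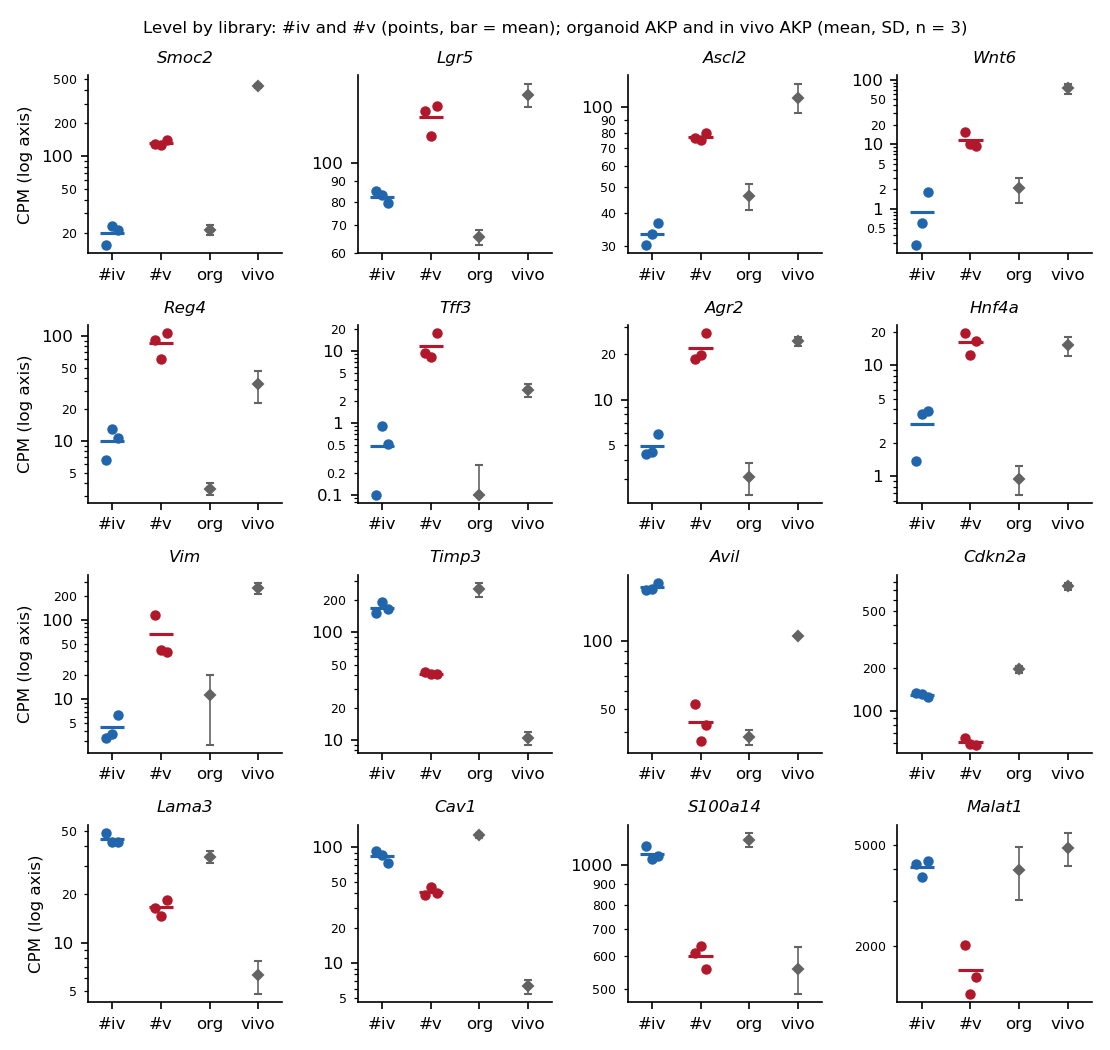
Level of 16 genes (CPM, log axis) in each library of #iv (blue) and #v (red), with a bar at the mean, and as mean ± SD of 3 libraries in organoid AKP (org) and in vivo AKP (vivo) of the same letter. Values under 0.1 CPM are drawn at 0.1. Timp3 stands at 40.6 to 42.8 CPM in #v and 151 to 194 in #iv, and Wnt6 at 9.49 to 15.7 and 0.274 to 1.79.

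Goblet cell genes were higher in #v by larger folds, at low levels. Of 20 tested, 12 were higher and 1 lower, and the list median was 1.48. In bulk RNA, more cells of a type and more RNA per cell cannot be told apart. Reg4, a lectin of goblet and deep crypt secretory cells, stood at 90.7, 60.7 and 106 CPM in #v and 6.59, 13 and 10.8 in #iv (3.09 ± 0.35, 0.000102). That is above in vivo AKP, at 34.8 ± 11.6 CPM, and organoid AKP, at 3.52 ± 0.437. Tff3, the trefoil peptide secreted with mucus, read 9.51, 8.37 and 17.7 CPM against 0, 0.906 and 0.513 (4.68 ± 0.52, 1.54e-07). Agr2, the disulfide isomerase that folds mucins, read 18.5, 19.6 and 27.4 CPM against 4.39, 4.53 and 5.90 (2.17 ± 0.22, 4.12e-10). Both were also near or above their in vivo AKP means, of 2.88 and 24.3 CPM.

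The factors that set the goblet programme were higher as well. Creb3l1, a secretory-pathway transcription factor, read 13.2, 8.22 and 16.4 CPM against 0.823, 1.51 and 1.28 (3.38 ± 0.35, 1.25e-09). Foxa3 read 35.5, 33 and 35 against 17, 13.9 and 14.1 (1.20 ± 0.16, 2.43e-07). Atoh1, the master factor of the secretory lineage, had 49 counts in #v and 1 in #iv, a ratio of 28.5 (4.88 to 1147). The mucin itself stayed rare: Muc2 was at 3.64, 1.22 and 2.11 CPM against 0.274, 0.302 and 0.769 (2.16 ± 0.65, 0.0156), highest in #v replicate 1. Its call was lost without #v replicate 1 (adjusted p = 0.0583), #iv replicate 1 or #iv replicate 2. Clca1 and Zg16, genes of mature goblet cells, had at most 4 counts per line. Ramp1, a calcitonin receptor partner, was the member lower in #v (−2.02 ± 0.49, 0.00224). Paneth and deep crypt secretory genes overlap this list through Reg4. Of 8 tested, 5 were higher and none lower. Itln1, a lectin, read 7.56, 6.70 and 9.84 CPM against 1.10, 0.906 and 1.03 (2.99 ± 0.37, 4.88e-08). Lyz1, a lysozyme of Paneth cells, had 47 counts in #v and 0 in #iv, which is at least 9.10-fold higher when 3 counts are taken as the limit for that line. Lyz1 has a close copy, Lyz2, with which reads can be shared, and Lyz2 had no count in either line. Kit, a deep crypt secretory cell marker, had 24 counts against 2, a ratio of 6.97 (1.73 to 60.9). Its call was lost under DESeq2 and without any 1 library other than #v replicate 1 (highest adjusted p = 0.175). The 33-library fit called 7 goblet genes higher, and none of the Paneth list.

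Intestinal identity factors and brush border genes were more often higher than lower. Hnf4a, a nuclear receptor that maintains intestinal epithelial differentiation, stood at 19.3, 12.3 and 16.4 CPM in #v and 1.37, 3.62 and 3.85 in #iv (2.40 ± 0.24, 6.01e-10). The organoid AKP mean was 0.954, the in vivo AKP mean 15 and the control mean 353 CPM, so that both lines lay far below the non-induced cells. Cdx2, the hindgut master factor, was 0.56 ± 0.12 higher (0.00148), Isx, which limits vitamin A uptake, 0.81 ± 0.11 (1.53e-07), and Foxa1 0.81 ± 0.11 (1.99e-07). Of 55 homeobox and regional identity factors tested, 12 were higher and 4 lower, the latter 2 without #v replicate 2 or #iv replicate 1. Among the Hox genes, which record position along the gut, Hoxa13 (1.12 ± 0.34, 0.0153) and Hoxb8 (0.45 ± 0.14, 0.0164) were higher, and Hoxb9 (−0.42 ± 0.08, 0.000133) and Hoxa9 (−0.38 ± 0.09, 0.00219) lower. Hoxd3 also fell, with 6 counts in #v and 21 in #iv. Hoxa9 and Hoxb9 stood at 83.9 and 171 CPM in #v against means of 4.79 and 10.5 in in vivo AKP.

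Of 39 colonocyte and brush border genes tested, 8 were higher and 2 lower. The higher count was 4 without #iv replicate 1, and 5 without #v replicate 3 or #iv replicate 3, and the lower count was 0 without #v replicate 2 or 3 or #iv replicate 1 or 3. Eps8l3, an actin regulator, read 32.2, 30.3 and 37.6 CPM against 15.6, 13 and 15.9 (1.17 ± 0.13, 7.13e-09). Car2, a carbonic anhydrase of colonocytes, read 257, 317 and 313 against 182, 182 and 183 (0.71 ± 0.12, 0.000342). Vil1, the microvillus actin bundler, was 0.34 ± 0.08 higher (0.00221). Lgals4, a galectin of the brush border counted among the epithelial markers, differed more than these, at 418, 486 and 502 CPM against 182, 188 and 221 (1.25 ± 0.08, 3.23e-14). Of all 12 epithelial markers, 6 were higher (Lgals4, Cdh1, Cldn3, Vil1, Cdx1 and Cdx2) and none lower. Cdh1, which encodes E-cadherin, stood at 892 ± 16 against 717 ± 33.7 CPM (0.31 ± 0.07, 0.000546).

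Vim, the mesenchymal intermediate filament, was higher in #v beside these epithelial genes. Its level was 114, 41.8 and 39.2 CPM in #v and 3.29, 3.62 and 6.41 in #iv (3.75 ± 0.72, 0.00407), with 248 ± 40.3 in in vivo AKP. As for Prox1, #v replicate 1 was the highest, and without it the difference was 3.15. The fibroblast markers at 0 are given above, and a part of other cells in the Vim level was not tested. Of 19 genes tested from a list of epithelial-mesenchymal transition genes, 5 were higher, and 3 of these without #v replicate 3 or #iv replicate 3. The 5 were Vim, Tgfbi, Ovol1 and the epithelial genes Cdh1 and Ocln, so the list's calls did not lie on 1 side of the transition. Esrp1, a splicing factor of epithelial cells, was the member called lower.

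Tuft and enteroendocrine genes were few. Of 9 tested, with a median of 0.09, Avil, Cpe and Ptgs1 were lower in #v and Insm1 was higher, on 20 counts against 1. The tuft cell marker Dclk1 was not called (log2 fold change 0.20). Insm1 was no longer called under limma-voom or DESeq2, or without any 1 library other than #v replicate 2. Avil (chr10:126836578-126856863, plus strand), an actin-binding protein of tuft cells, stood at 52.9, 36.4 and 42.6 CPM in #v and 168, 168 and 179 in #iv (−1.99 ± 0.10, 4.23e-19). Organoid AKP stood at 37.8 ± 2.72 CPM, so that #iv lay apart from organoid AKP and #v beside it. Cpe, which processes peptide hormones, read 9.79, 11.4 and 12.9 CPM against 33.5, 30.8 and 28.5 (−1.41 ± 0.15, 2.72e-09).

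Fetal-like and regenerative genes were more often lower in #v. Of 29 tested, 10 were lower and 4 higher, with a median of −0.20, and 9 of 27 were lower outside chromosome 3. Leaving out 1 library at a time kept the lower count at 9 or 10, but the higher count was 2 without #v replicate 2, #iv replicate 1 or #iv replicate 2. Basp1, a membrane-bound signalling protein, read 142, 128 and 132 CPM against 296, 259 and 255 (−1.02 ± 0.07, 6.84e-14). Anxa3, an annexin, read 429.8, 459 and 422 against 695, 729 and 659.8 (−0.67 ± 0.07, 6.38e-09). Clu, the marker of revival stem cells, read 102, 109.7 and 89.7 against 159, 165 and 152 (−0.66 ± 0.10, 3.2e-06), and both lines exceeded the organoid AKP mean of 37.5. Msln, the surface protein mesothelin, was lower by −0.73 ± 0.08 (1.12e-08), and the keratins Krt14 by −0.79 ± 0.10 (8.86e-08) and Krt7 by −0.47 ± 0.07 (1.27e-06). Well-known members did not pass: Ly6a (Sca-1) stood at 891 ± 40.7 against 919 ± 48.9 CPM (adjusted p = 0.72) and Anxa1 at 564 ± 14.2 against 584 ± 25.3 (0.911). The 4 higher members were Ly6g, Ly6e, Krt6a and the cyclin Ccnd2.

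Basement membrane and adhesion genes were more often lower than higher in #v. Of 31 tested integrins, laminins and collagens, 9 were lower and 3 higher, with a median of −0.30 and none on chromosome 3. Laminin chains of the epithelial basement membrane were among the lower ones. Lama3 read 16.5, 14.8 and 18.5 CPM against 48.6, 42.6 and 42.8 (−1.42 ± 0.14, 2.49e-10), and Lamb3 differed by −0.45 ± 0.10 (0.000988). Integrin subunits that bind laminin were also lower, Itga3 at 107, 110.5 and 84.6 CPM against 131, 146 and 138 (−0.46 ± 0.09, 0.000339) and Itgb1 at 381 ± 15.9 against 453 ± 18.3 (−0.25 ± 0.07, 0.00563). Lama3 stood at 34.4 CPM in organoid AKP and 6.24 in in vivo AKP, so that #v lay between #iv and in vivo AKP. In the opposite direction, Col12a1, a fibril-associated collagen, was 1.98 ± 0.48 higher (0.00256) and Col16a1 3.35 ± 0.57 (0.000463).

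Inhibitors of matrix proteases moved with them. Timp3 (chr10:86136236-86185371, plus strand), which is held in the matrix, stood at 42.8, 40.6 and 40.8 CPM in #v and 151, 194 and 165 in #iv (−2.04 ± 0.11, 2.99e-15), with 251 ± 36.8 in organoid AKP and 10.5 ± 1.46 in in vivo AKP. Timp1 was lower too (−1.10 ± 0.21, 0.000189), and Timp2 by a small step (−0.21 ± 0.07, 0.0203). Of 21 tested metalloproteinases and inhibitors, 7 were lower and 2 higher (Mmp7 and Mmp15). The lower count was 4 without #iv replicate 1. Cav1, the coat protein of caveolae, read 38.9, 45.2 and 40.5 CPM against 93.3, 86.1 and 72.8 (−1.01 ± 0.11, 1.04e-09), and its partner Cav2 differed by −0.70 ± 0.10 (7.23e-07). Both were the members called among 8 tested caveolins and cavins.

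Among 30 tested Hippo pathway effectors and targets, 6 were lower and 2 higher. Ankrd1, a target of YAP, read 46.5, 43.7 and 43.7 CPM against 99.9, 92.4 and 84.1 (−1.05 ± 0.12, 5e-08), and Amotl1, a scaffold of the pathway, 49, 53.1 and 40.2 against 85.6, 75.8 and 91.5 (−0.84 ± 0.10, 4.41e-08). The best-known targets gave no call: Ccn2 stood at 254, 299 and 207 CPM against 434, 398 and 331 (adjusted p = 0.1) and Ccn1 at 45.1 ± 2.57 against 42.9 ± 3.15 (0.927). The coactivators differed in opposite ways, Yap1 by 0.39 ± 0.08 (0.000493) and Wwtr1, which encodes TAZ and lies on chromosome 3, by −0.54 ± 0.09 (1.5e-05).

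**Figure D3:**
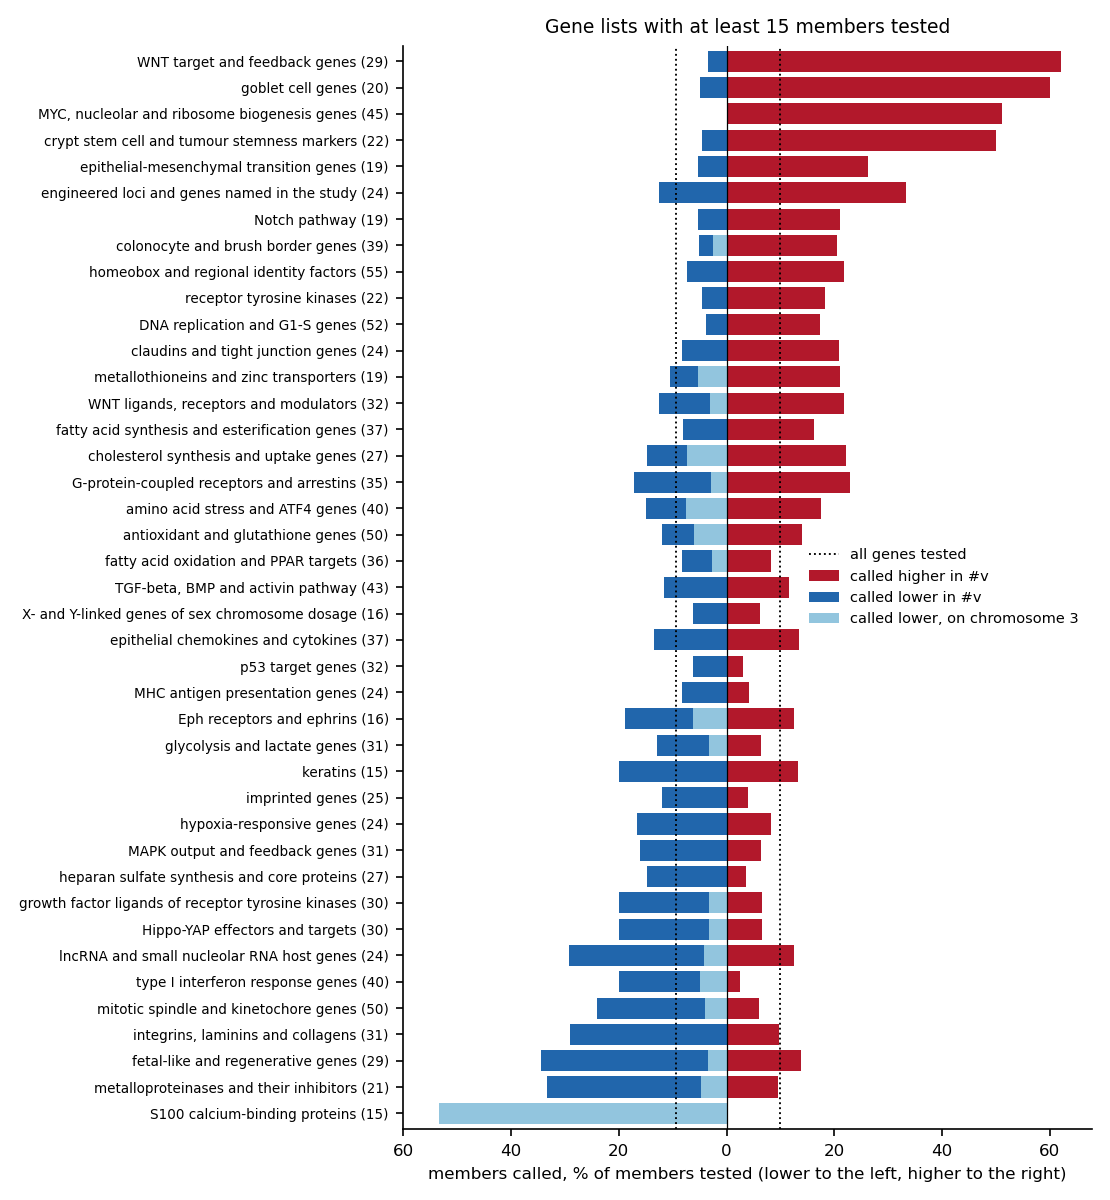
Share of tested members (%) called higher (red, to the right) or lower (blue, to the left) in #v for each gene list with at least 15 members tested, the number in brackets. Light blue marks lower members on chromosome 3, and the dotted lines mark all genes tested (9.94% and 9.36%). WNT target genes reached 62.1% higher, goblet cell genes 60.0%, and S100 genes 53.3% lower, all on chromosome 3.

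Cell cycle genes gave a mixed picture. Of 7 cyclin-dependent kinase inhibitors tested, 3 were lower in #v and none higher. Cdkn2a, which encodes p16 and p19, stood at 64.9, 58.4 and 58.2 CPM against 133, 131 and 124 (−1.10 ± 0.08, 5.91e-14), and Cdkn2b, its neighbour on chromosome 4, at 3.92, 2.74 and 3.40 against 9.88, 7.25 and 6.41 (−1.25 ± 0.26, 0.000336). Organoid AKP and in vivo AKP stood above both lines, with Cdkn2a means of 195 and 744 CPM. Cdkn1b (p27) was slightly lower (−0.28 ± 0.08, 0.0141), and Cdkn1a (p21), a target of p53, stood at 175 ± 28.4 against 188 ± 6.65 CPM (0.484). Of 52 DNA replication and G1-S genes tested, 9 were higher and 2 lower, among them Ccnd2 at 1478 ± 108 against 1088 ± 50.0 CPM (0.44 ± 0.07, 3.36e-06). Of 50 mitotic genes tested, 3 were higher and 12 lower, 2 of the lower ones on chromosome 3, with a median of 0.00. The lower count was 5 without #v replicate 3 and 7 without #iv replicate 2, while the higher count was 1 without #iv replicate 2. Plk1, a mitotic kinase, was 0.52 ± 0.08 higher (1.25e-05) and Cdc20, an activator of the anaphase-promoting complex, 0.36 ± 0.10 (0.0116). Ndc80, of the outer kinetochore, was lower (−0.45 ± 0.10, 0.00123), as were Nusap1, Dlgap5 and Ckap2l.

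Ribosome biogenesis genes were higher by small steps. Of 45 tested MYC, nucleolar and ribosome biogenesis genes, 23 were higher and none lower, with a median of 0.28. Srm, which makes spermidine, read 84.8, 108 and 98.3 CPM against 63.7, 70.1 and 62.5 (0.58 ± 0.10, 4.5e-05), and Bop1, a factor of the large ribosomal subunit, was 0.53 ± 0.15 higher (0.00814). Ncl (nucleolin) read 2667, 3102 and 2996 against 2482, 2499.6 and 2417 (0.24 ± 0.06, 0.00464). For Npm1 (nucleophosmin) the libraries of the lines overlapped, at 1736, 1838 and 2008 against 1605, 1529 and 1768 CPM (0.19 ± 0.07, 0.0367). The count was 13 without #iv replicate 1, 15 without #v replicate 2, and 1 in the 33-library fit. Scaling by total counts moved the median of all genes from 0.02 to 0.04 and that of this list to 0.30.

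Growth factor receptors and their feedback genes differed in single members. Among 22 tested genes listed as receptor tyrosine kinases, 4 were higher (Fgfr2, Fgfr3, Fgfrl1 and Kit) and 1 (Flt1) lower. Fgfrl1 encodes a relative of the FGF receptors that lacks the kinase domain. The higher count was 2 without #iv replicate 2. The call of Kit was lost as described above, and that of Flt1 without #v replicate 2 or #iv replicate 3. Fgfr2 had 69 counts in #v and 2 in #iv, a ratio of 20.1 (5.34 to 169), and Fgfr3 read 3.36, 2.59 and 3.28 CPM against 1.37, 0.604 and 0.769 (1.70 ± 0.48, 0.00834). Of 30 tested ligands of these receptors, 6 were lower and 2 higher. Vegfa, the vascular growth factor, read 208, 194 and 203 CPM against 344, 340.0 and 308 (−0.71 ± 0.08, 1.19e-08), and the EGF receptor ligands Hbegf (−0.59 ± 0.09, 1.79e-06) and Btc (−0.41 ± 0.10, 0.00235) were lower. Among 31 genes that report MAPK signalling, 5 were lower and 2 higher, the lower count being 3 without #iv replicate 1. Dusp4, a phosphatase that restrains ERK, stood at 25.9 ± 1.60 against 40.3 ± 5.48 CPM (−0.63 ± 0.14, 0.00102). Its relative Dusp6 was lower by −0.21 ± 0.07 (0.0417), and Junb by −0.47 ± 0.08 (2.5e-05).

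Single BMP and Notch genes were called in both directions. Of 43 tested TGF-beta, BMP and activin genes, 5 were higher and 5 lower (11.6% each), near the 9.94% and 9.36% of all genes. Id3, a BMP-induced inhibitor of differentiation factors, read 69.1, 50.8 and 57.9 CPM against 22.5, 26.3 and 27.7 (1.20 ± 0.12, 2e-09) and Id2 375, 387 and 359.5 against 254, 239 and 269 (0.56 ± 0.08, 3.64e-07). Among the ligands, Bmp7 was 0.79 ± 0.21 higher (0.00624), Bmp4 lower (−1.26 ± 0.23, 6.67e-05) and Inhba, a subunit of activin A, lower, at 16.5, 17.8 and 16.6 CPM against 36.2, 37.1 and 29.5 (adjusted p = 8.98e-07). Of 19 Notch pathway genes tested, 4 were higher and 1 lower. The receptor Notch1 read 9.23, 5.63 and 9.84 CPM against 3.29, 2.72 and 2.31 (1.56 ± 0.29, 0.000117).

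Of the 15 named genes with the largest increases, Tff3, Vim, Wnt6, Creb3l1, Prox1, Col16a1, Reg4, Itln1 and Smoc2 are described above. The largest was Ldb3, a Z-disc protein of striated muscle, at 5.32, 6.09 and 5.27 CPM in #v, with 104 counts against 1 in #iv, a ratio of 60.4 (10.6 to 2410). The others were Clca3b (2.85), Adcy1 (2.84), Sorcs2 (2.81), Cpn1 (2.66) and Tox3 (2.65), all under 13 CPM in every #v library. Reads of Clca3b may be shared with other members of its gene cluster. Sorcs2, a sorting receptor of neurons, read 10.9, 11.3 and 12.8 CPM against 1.92, 2.11 and 1.03 (adjusted p = 1.18e-09).

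Among the 15 with the largest decreases, Car6 came first, a secreted carbonic anhydrase at 1.40, 0.913 and 2.34 CPM in #v and 18.7, 26.3 and 22.6 in #iv (−3.75 ± 0.31, 2.62e-12). Col8a1, a network-forming collagen, read 1.96, 2.28 and 2.23 CPM against 15.6, 19.9 and 21.5 (−3.11 ± 0.24, 2.48e-13). For both, organoid AKP lay near #v, at 2.43 and 5.25 CPM, as it did for the interleukin 18 receptor Il18r1 (−2.23; 1.76 CPM in organoid AKP against 8.89 in #iv). Phyhd1 (−2.51), Lncenc1 (−2.43), the serine protease gene Prss27 (−2.34), Dcdc2a (−2.26), Lix1l (−2.21), Clec2f (−2.04), Gpr37l1 (−1.94), Map9 (−1.79) and Rgn (−1.67) followed, with Timp3 and Avil among them. Lix1l and Map9 are on chromosome 3, and Clec2f has close copies with which reads can be shared. The nuclear RNA Malat1 was lower as well, at 2018, 1287 and 1513 CPM against 4179, 3744 and 4325 (−1.35 ± 0.20, 0.000772). The small nucleolar RNA host gene Snhg9 was higher, at 151, 180.3 and 178 CPM against 47.7, 42.3 and 51.3 (1.85 ± 0.12, 6.35e-12).

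Genes on chromosome 3 stood apart as a group. Of 671 tested, 242 (36.1%) were lower in #v and 20 (2.98%) higher, with a median log2 fold change of −0.30 and 77.8% of the genes below 0. On the other autosomes 7.92% of 11938 genes were lower and 10.3% higher, and the chromosome medians ran from 0.00 to 0.06. The shift was present along the chromosome: in 8 windows of 20 Mb the medians lay between −0.21 and −0.34, all below 0. Set against the organoid AKP mean, genes of at least 10 CPM on chromosome 3 had a median of 0.29, 0.29 and 0.27 log2 units in the 3 #iv libraries and −0.04, −0.01 and −0.03 in those of #v. In the other 27 libraries of the series, each against organoid AKP of its own letter, the median ran from −0.07 to 0.08. The chromosome 3 difference was therefore carried by #iv, whose libraries lay above all others, and #v sat with the remaining libraries. DNA was not measured.

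**Figure D4:**
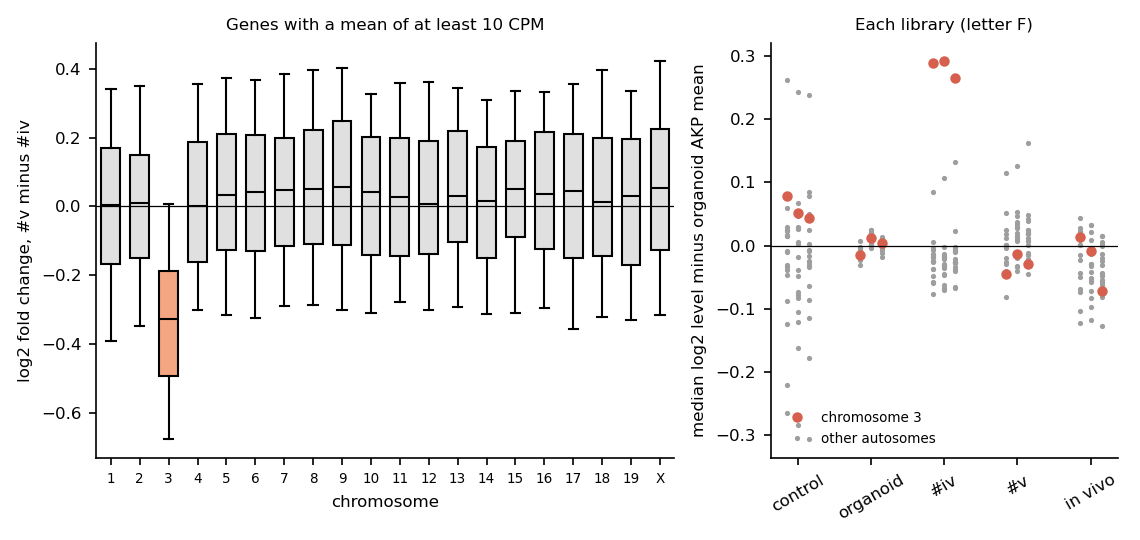
Left, log2 fold change (#v minus #iv) of genes with a mean of at least 10 CPM by chromosome (boxes, quartiles; whiskers, 10th to 90th percentile). Right, median log2 level of each chromosome in each letter F library minus the organoid AKP mean, where chromosome 3 (red) lies at 0.27 to 0.29 in the 3 #iv libraries and between −0.04 and −0.01 in those of #v.

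The called genes of chromosome 3 with the smallest p included Arhgap29, a GTPase-activating protein, at 58.8, 54.2 and 65.5 CPM in #v and 143, 137 and 139 in #iv (−1.23 ± 0.09, 5.91e-14). Golim4, a Golgi membrane protein, read 130.1, 139 and 115 against 259, 273 and 238 (−1.01 ± 0.08, 6.63e-13), and Ppp3ca, the calcineurin catalytic subunit, 466, 470.0 and 482 against 856, 889 and 845 (−0.87 ± 0.07, 2.57e-12). These differences exceed the chromosome's median shift, and for Arhgap29 and Golim4 the #iv level lay near that of organoid AKP, at 129 and 261 CPM, while #v lay below both.

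S100 calcium-binding proteins, small EF-hand proteins, are mostly encoded in a cluster on chromosome 3. Of 15 tested, 8 were lower, all 8 among the 12 on chromosome 3, and of the 3 elsewhere none was called. S100a14 (chr3:90434082-90436144, plus strand) stood at 611, 634 and 558 CPM in #v and 1111, 1035 and 1052 in #iv (−0.83 ± 0.07, 1.15e-11), and organoid AKP at 1151 ± 46. S100a11 read 947, 1086 and 887 CPM against 1681, 1542 and 1531 (−0.70 ± 0.09, 3.16e-06), and organoid AKP at 998 ± 8.28 lay with #v. S100a6 stood at 3065 ± 300.0 against 4209 ± 30.5 CPM (−0.46 ± 0.07, 1.17e-05). The list's median of −0.58 was beyond the −0.30 of chromosome 3 as a whole. Higher members of other lists, Reg4, Eps8l3, Car2, Lef1 and Clca3b, also lie on chromosome 3 and went against its shift. Without chromosome 3, 1276 genes were higher and 979 lower.

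**Figure D5:**
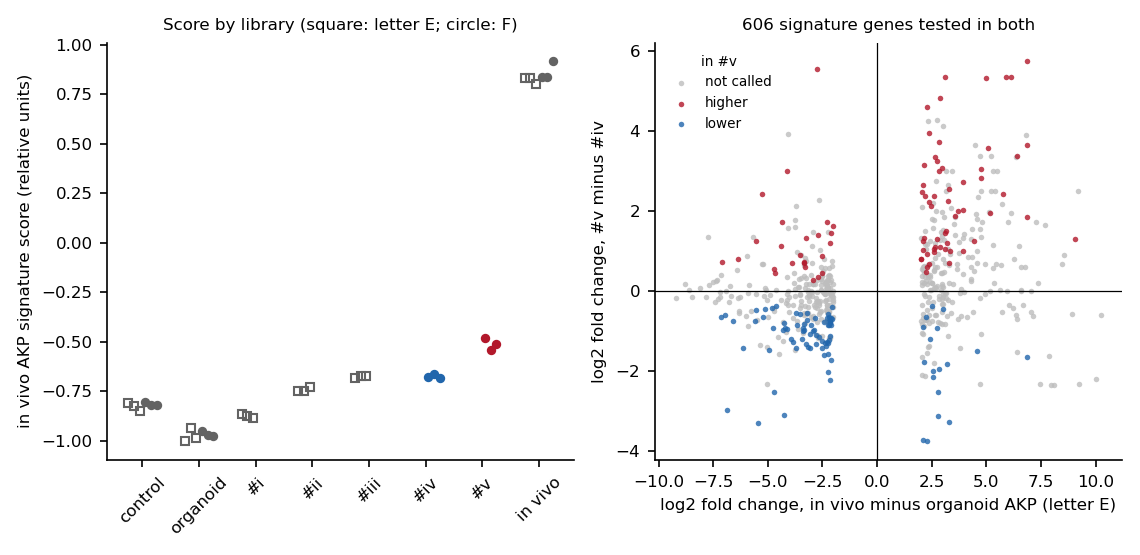
Left, in vivo AKP signature score of each library (relative units, squares letter E, circles letter F), where the #iv libraries lie at −0.680 to −0.663 and those of #v at −0.540 to −0.480. Right, log2 fold change of the 606 signature genes tested in both comparisons, in vivo minus organoid AKP in letter E libraries against #v minus #iv, coloured by the call in #v.

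Position between organoid AKP and in vivo AKP was described without a test, since the lines were chosen with it known. A signature was taken from the letter E libraries, which share no library with this comparison: 323 genes (2.48% of 13027) were higher in in vivo AKP than in organoid AKP by at least 2 log2 units and 333 (2.56%) lower. Of 293 higher genes tested here, 57 (19.5%) were higher in #v and 18 (6.14%) lower, with a median of 0.56, and these made up 4.40% of all genes higher in #v. Of 313 lower ones, 71 (22.7%) were lower in #v and 25 (7.99%) higher, with a median of −0.22, or 5.81% of all genes lower in #v. Most of the signature was therefore not called between the lines. On a rank-based score of the signature, scaled so that the lowest organoid AKP library is at −1, the #iv libraries lay at −0.677, −0.663 and −0.680 and the #v libraries at −0.480, −0.540 and −0.511. Organoid AKP of the same letter lay between −0.973 and −0.948, and in vivo AKP between 0.836 and 0.914.

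Where the lines differed, #iv was mostly the one nearer to organoid AKP. Of 284 genes higher in #v by at least 1 log2 unit, #iv had the mean nearer to organoid AKP for 211 (74.3%) and nearer to in vivo AKP for 57 (20.1%). Of 195 lower by as much, it was nearer to organoid AKP for 136 (69.7%) and to in vivo AKP for 74 (37.9%). Smoc2, Wnt6, Prox1 and Vim followed this order, with #v between #iv and in vivo AKP. Avil, Car6 and Col8a1 did not, since #iv was the line that lay away from organoid AKP, and for Cdkn2a both lines lay below organoid AKP while in vivo AKP lay above it. Over all 1296 higher and 1221 lower genes, #iv was nearer to organoid AKP for 71.4% and 67.7%, and nearer to in vivo AKP for 43.6% and 39.4%.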

How the data were processed

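Per the labels, total RNA of mouse colon organoid lines was sequenced, and the study's methods give QuantSeq 3′ libraries, alignment with STAR 2.7.0e to GRCm39 and filtering and scaling in edgeR and limma under R 4.1.2. The authors deposited raw counts per Ensembl gene for each library. The counting tool, its annotation and its strand setting are not given in the sources used here, so overlapping and antisense genes cannot be told apart. Of 32285 identifiers, 31674 were named by GENCODE M39. That annotation also gave the gene positions printed above, on GRCm39, whereas the promoter windows are on GRCm38.p6. The 611 without a name held 7.43% of the counts of the 6 libraries, 7.33% in a single identifier, and were kept in the library totals.

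Counts were tested as deposited with edgeR 4.0.16 (R 4.3.3): robust quasi-likelihood fit, TMM scaling, genes of at least 1 CPM in at least 3 of 15 libraries of letter F, and 1 coefficient for each of 5 groups (10 residual degrees of freedom). Letter E libraries were left out of this fit because lines read under both letters differed between them, which enters the spread. limma 3.58.1 (voom) and DESeq2 1.42.0, other scalings, filters and sample sets, and leaving out each library were alternatives. The script was tested on simulated data.

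Members and gene lists were chosen with earlier results of these data known. Named genes were, in each direction, the 15 called genes with the largest change among those whose higher line averaged 5 CPM or more, whose lines did not overlap and whose names were neither predicted nor pseudogene names. From each list up to 4 called members with the smallest p were named with its defining members, besides the engineered loci, the genes the study names and up to 3 genes of a chromosome set apart by its median. Other members named in the text were chosen after their values were seen. List symbols that the files do not hold were not analysed here, and some items are not reported here. Genes with at most 3 counts in the lower line are given as count ratios with exact 95% intervals, or at a floor of 3 counts over the group where it had 0, and both cover counting error only. No label ties a library to a separate culture or derivation, so the p-values reflect library-to-library spread, possibly of technical origin, and nothing wider. The code letters were read from the library names, and their meaning is not given.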

Additional observations from a re-analysis of the deposited data

How the results depend on the processing

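Under limma-voom, DESeq2, RLE scaling, total-count scaling, no filter, the 6 libraries alone, a line and letter model, thinned counts and genes outside chromosome 3, the number of genes higher in #v lay between 1005 and 1469 and the number lower between 979 and 1562. The 33-library model of 8 lines gave 200 and 229, because it holds letter differences within a line in its spread. Leaving out 1 library gave 844 to 1172 higher genes and 909 to 1186 lower, each time from fewer samples. Of 194 named genes called, 77 were called in the 33-library model and 176 to 189 without 1 library, and none changed direction under any alternative. The signature medians were 0.33 and −0.11 at a fold limit of 1 log2 unit in place of 2, and the median of the lower genes was −0.35 with the signature taken from letter F libraries, which also hold the reference libraries of the fit. For chromosome 3 the median was −0.33 over genes of at least 10 CPM and −0.28 with total-count scaling. Why these medians moved was not tested. Same-numbered replicates of the lines did not deviate together (correlations −0.02, 0.05 and 0.01), so the numbers do not pair the samples. With the replicate block over the 6 libraries, 1561 genes were higher and 1620 lower. One count was worth up to 0.310 CPM, so genes under about 1 CPM rest on few counts.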

Other observations

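Lipid and amino acid genes differed in single members. Of 37 tested fatty acid synthesis and esterification genes, 6 were higher in #v (16.2%) and 3 lower (8.11%), beside 9.94% and 9.36% of all genes. Fasn, the fatty acid synthase, stood at 243, 283 and 235 CPM in #v and 134, 133 and 165 in #iv (log2 fold change 0.81 ± 0.13 SE, adjusted p = 0.000219 by edgeR's quasi-likelihood test, as for all values here), and Acly, which supplies its acetyl-CoA, was 0.26 ± 0.08 higher (0.0205). Of 27 cholesterol genes tested, 6 were higher and 4 lower, 2 of the lower ones on chromosome 3, and these counts were 3 without #v replicate 2 and 1 without #v replicate 3. Srebf2, the regulator of the pathway, was lower (−0.31 ± 0.09, 0.00938). Among 40 ATF4 and amino acid stress genes tested, 7 were higher and 6 lower, 3 of the latter on chromosome 3. The higher ones included the amino acid transporters Slc7a5 (0.40 ± 0.10, 0.00554) and Slc7a11 (0.33 ± 0.11, 0.0325). The lower ones included Cth, which makes cysteine, at 100.2, 96.5 and 109.9 CPM against 171, 189.6 and 156 (−0.75 ± 0.10, 1.27e-06), and Phgdh, the first enzyme of serine synthesis (−0.42 ± 0.11, 0.00492), both on chromosome 3. The higher count was 4 without #v replicate 3 or #iv replicate 1, and 3 without #iv replicate 3.

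Called antioxidant and hypoxia genes went both ways and called interferon genes mostly lower, beside 9.94% higher and 9.36% lower among all genes tested. Of 50 antioxidant and glutathione genes tested, 7 were higher (14%) and 6 lower (12%), close to those shares, with 3 of the lower ones on chromosome 3. The glutathione transferase Gsta3 read 16.0, 28.3 and 25.7 CPM against 11.2, 8.76 and 11.5 (1.19 ± 0.19, 1.26e-05), and Akr1b8, an aldo-keto reductase, was lower (−0.79 ± 0.13, 1.68e-05). The higher count was 3 without #v replicate 3 and 4 without #iv replicate 2 or 3. Of 24 hypoxia-responsive genes, 4 were lower (16.7%) and 2 higher (8.33%), the lower count being 2 without #iv replicate 1. Car9, a carbonic anhydrase induced by hypoxia, stood at 106, 82.6 and 93.8 CPM against 178, 164 and 162 (−0.85 ± 0.10, 1.44e-07). Of 40 type I interferon response genes, 8 were lower (20%), 2 of them on chromosome 3, and 1 higher (2.5%). The lower count was, however, 2 without #iv replicate 1 and 5 without #iv replicate 2. Stat2, a transcription factor of that response, stood at 4.76, 4.87 and 4.80 CPM against 10.2, 6.94 and 8.20 (−0.81 ± 0.23, 0.00932).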
